A study of Mus musculus with 8 samples.

Results

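The genes described here build the machinery that copies DNA: 42 genes for origin licensing, the replicative helicase, the polymerases and clamp of the fork, nucleotide supply, and the E2F factors that switch many of them on. They were taken by gene symbol from a fixed list, and all 42 were found, each with 1 probe set, among 30918 genes on the arrays. Expression was measured on Affymetrix arrays in multipotent progenitors sorted from mouse bone marrow as LSK CD48- CD150- cells, where LSK means lineage-negative, Sca-1+ and c-Kit+. The 4 Elektra samples (Slfn2 elektra/elektra) were homozygous, in every cell of the body, for a Slfn2 allele that the series title calls loss of function, and the 4 wild-type samples (Slfn2 wt/wt) came from littermates. All mice had a C57Bl/6 background and were untreated, and the labels give no age. Slfn2 itself was at log2 1.99 to 2.18 in the Elektra arrays and 1.68 to 2.44 in the wild-type arrays, so its probe set does not tell the genotypes apart and checks no label. Marrow of a pair of mice of the same genotype was pooled for each sample per the protocols, while the series description counts 4 mice per genotype, so the number of animals is not settled here.

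DNA replication starts at origins, which the origin recognition complex (ORC) marks and on which CDC6 and CDT1 load the ring-shaped MCM2-7 helicase in G1 phase. At the start of S phase CDC45 and the GINS complex join that ring and turn it into the active helicase, and DNA polymerases alpha, delta and epsilon follow it with the sliding clamp PCNA and its loader, replication factor C (RFC). E2F factors, held in check by retinoblastoma proteins in resting cells, activate most of these genes when a cell commits to division, and E2F7 and E2F8 repress them later in the cycle. Most haematopoietic stem cells rest outside the cycle, and multipotent progenitors divide more often. Slfn2, of the Schlafen family, is known to help hold T cells in a resting state, and the comparison asks how its loss changes the transcriptome of these progenitors at steady state.

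No difference in the replication genes between genotypes passed the test. The SD among arrays was larger in Elektra than in wild type for 35 of the 42 genes with all arrays and for 21 without Elektra replicate 2. None of the 42 passed an adjusted p of 0.05 in limma, adjusted over all genes, against 0% of all genes, and their lowest adjusted p was 0.884. The unadjusted p lay under 0.05 for 3 of the 42, against 5.5% of all genes. They were Cdc6, higher in Elektra (2.63% of all genes were called in that direction), and Fen1 and Gins3, lower in Elektra (2.87%). A pooled-variance test gave 0 of 42 after adjustment and 1 of 42 before it, against 5.08% of all genes. The log2 change was above 0 for 16 of the 42, where 53.9% of all genes lay above 0. Its median over the 42 was -0.05, against 0.01 over all genes, with a range from -0.40 (Pole) to 0.51 (Cdc6). The 95% interval of the change lay within -1 to 1 for 41 of the 42, the exception being Pole (-1.10 to 0.29).

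The direction of the group changed with 1 array. Without Elektra replicate 2, 32 of the 42 genes had a log2 change above 0 in place of 16, and the median was 0.11 in place of -0.05. Without Elektra replicate 3 the count was 9, and the median was -0.17. No member passed the adjusted threshold in either fit. Elektra replicate 2 also stood apart over the whole array, but not by low values alone. The mean of the 7730 genes above the upper quartile of level was 5.14 there and 5.36 to 5.41 in the other arrays. The median of all genes was 2.18 there and 2.08 to 2.14 in the other arrays. Of all genes, 20.1% had their lowest value in it and 21.9% their highest.

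**Figure D1:**
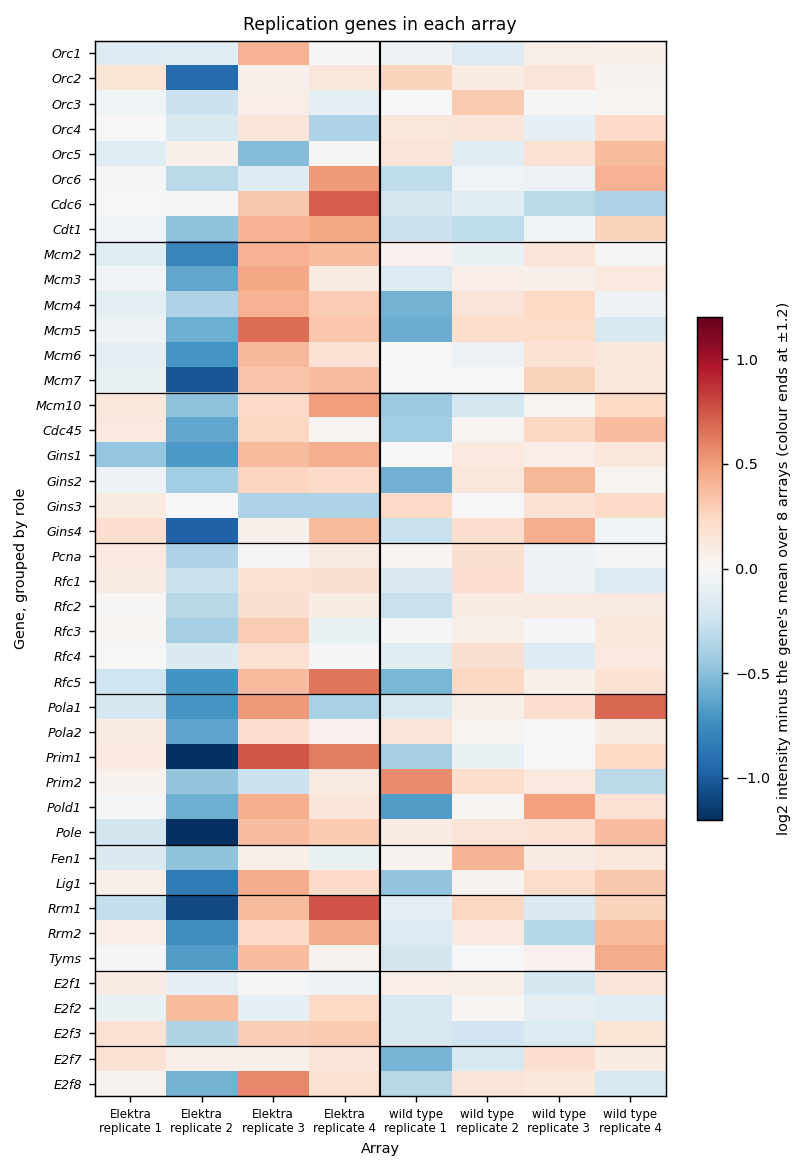
Heat map of the 42 replication genes (rows, grouped by role) in the 8 arrays (columns, Elektra left and wild type right of the line). Colour gives the log2 intensity minus the mean of the gene over all arrays, and the column of Elektra replicate 2 is the lowest for 30 of the 42 genes. That array is also the lowest for 20.1% of all genes and 41.5% of those above the upper quartile of level.

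The mean log2 level of the 42 genes was 4.71, 4.23, 4.97 and 4.93 in Elektra replicates 1 to 4 and 4.57, 4.79, 4.80 and 4.86 in wild-type replicates 1 to 4. Group means were 4.71 ± 0.34 for Elektra and 4.76 ± 0.13 for wild type (SD, n = 4), and without Elektra replicate 2 the Elektra mean was 4.87. The Elektra arrays held the lowest mean (replicate 2) and the 2 highest (replicates 3 and 4), and the wild-type arrays lay between them. Elektra replicate 2 was lowest for 30 of the 42 genes, wild-type replicate 1 for 6 and each of the other arrays for at most 2. Of all genes 20.1% were lowest in Elektra replicate 2, and of the genes above the upper quartile of level 41.5%. Elektra replicate 3 lay above all 4 wild-type arrays for 19 of the 42 genes, where 21.9% of all genes did, and Elektra replicate 4 for 16, where 23.8% did. Elektra replicate 1 lay above all of them for 2 genes and below all of them for 11, where 19.5% and 19.3% of all genes did. Elektra replicate 2 lay below all of them for 32, against 26.1% of all genes and 49.6% of the genes above the upper quartile of level. The SD among the Elektra arrays exceeded that among the wild-type arrays for those 35 genes, where 59.6% of all genes did the same. Its median was 0.38 in Elektra and 0.18 in wild type over the 42, and 0.19 and 0.15 over all genes. Without Elektra replicate 2 the median Elektra SD of the 42 was 0.22, and 21 of them, against 47.4% of all genes, had the larger SD in Elektra. In RNA from a whole sample, fewer cells in S phase and less of these RNAs per cell cannot be told apart, and neither was tested. Elektra replicate 2 differed over all genes as well: its highest correlation with another array was 0.974, where the others reached 0.984 to 0.988. Whether its low values come from the cells or from the array was not tested.

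Elektra replicate 2 lay further below the other arrays in the replication genes than in mitotic genes or in genes of high level at large. Its difference from the mean of the other 7 arrays had a median of -0.56 over the 42 genes, -0.37 over 53 other replication genes, -0.15 over 24 mitotic genes and -0.21 over the 7730 genes above the upper quartile of level. It was below -0.5 for 24 of the 42 genes and 4 of the 24 mitotic genes. The same held for 8.49% of all genes and 19.8% of the genes above the upper quartile of level. After quantile normalisation, which gives every array the same distribution of values, the medians were -0.43, -0.21, 0.06 and -0.0017, and 22 of the 42 were still lowest in that array. The difference was then below -0.5 for 16 of the 42, against 6.1% of all genes and 8.94% of those above the upper quartile of level. With quantile normalisation, median centring, the mean of the probe sets or the series value table, 22 to 33 of the 42 were lowest in Elektra replicate 2. Of all 30918 genes, 5842 to 8993 were lowest in it under these alternatives. In the deposited values, the mean of the mitotic genes was lowest in wild-type replicate 1 (3.65) and highest in Elektra replicate 4 (4.32). In that last array 17 of the 24 lay above all wild-type arrays, against 23.8% of all genes. By mean, Elektra replicate 2 was the lowest Elektra array at 3.82, with wild-type values of 3.65 to 4.09. By median, it was at 4.01 and the other arrays at 3.52 to 4.38. Wild-type replicate 1 was the lowest array for 11 of the 24, and Elektra replicate 2 and wild-type replicate 3 for 4 each. The difference between the lists was not tested.

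**Figure D2:**
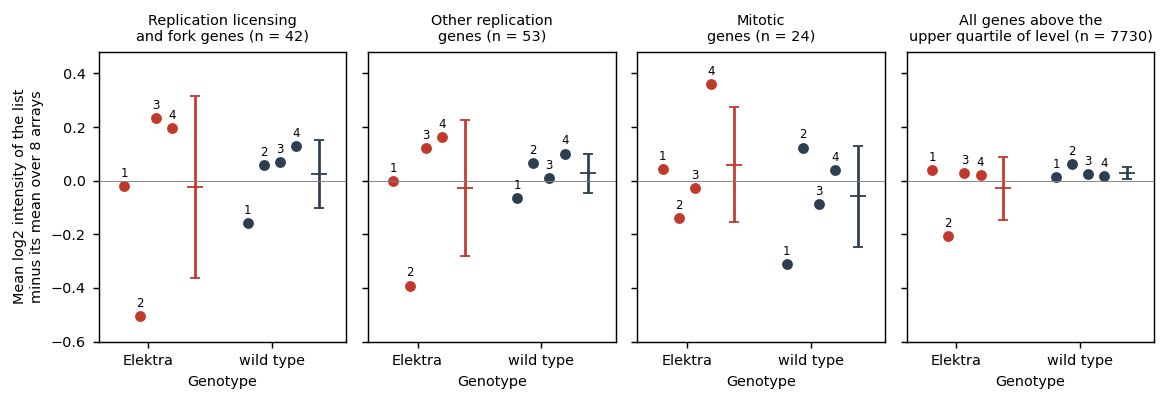
Mean log2 intensity of 4 gene lists in each array, minus the mean of that list over the 8 arrays. Numbered points are arrays, and the bar beside each group is its mean ± SD (n = 4). Elektra replicate 2 is the lowest point for the 42 replication genes (mean level 4.23) and the 53 other replication genes (4.07), while wild-type replicate 1 is the lowest for the 24 mitotic genes (3.65).

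Many of the 42 genes share a promoter motif. RefSeq promoter windows (build GRCm38.p6, 250 bases before to 50 after each annotated start) were at hand for 35 of the 42 genes. The E2F motif, searched on both strands as TTTCCCGC, TTTCGCGC, TTTGCCGC or TTTGGCGC, was found for 16 of these 35 genes and in 36.4% of their 44 windows, against 2.26% of all 32851 windows. All windows together were not matched to those of the 42 genes in base composition. It was found for 13 of 42 other replication genes and 1 of 20 mitotic genes with a window. The CHR element of mitotic promoters, searched as TTTGAA on both strands, was found for 14 of those 20 mitotic genes and for 7 of the 35 replication genes, against 20.2% of all genes with a window. The CCAAT box, searched as CCAAT on both strands, was found for 23 of the 35 and for 41.1% of all genes with a window. The stretches below run from 170 bases before to 30 after the start, 5′ to 3′ on the strand of the gene, with E2F matches in capitals. They show Cdc6, the gene with the smallest p, 4 subunits of the MCM ring, Rfc3 with 2 matches at its start, Gins3, which did not follow the other genes across arrays, and Prim1, which had one of the widest drops in Elektra replicate 2 and no match in its window.
Cdc6 (chr11:98907981-98908180, plus strand): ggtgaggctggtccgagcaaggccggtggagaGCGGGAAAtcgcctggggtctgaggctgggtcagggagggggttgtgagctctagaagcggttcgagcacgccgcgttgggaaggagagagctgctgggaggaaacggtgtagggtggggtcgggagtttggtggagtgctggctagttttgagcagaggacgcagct
Mcm3 (chr1:20820283-20820482, minus strand): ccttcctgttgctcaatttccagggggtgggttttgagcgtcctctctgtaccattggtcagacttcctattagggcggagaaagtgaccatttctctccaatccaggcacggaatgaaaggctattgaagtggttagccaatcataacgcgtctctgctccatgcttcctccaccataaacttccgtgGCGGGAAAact
Mcm5 (chr8:75109339-75109538, plus strand): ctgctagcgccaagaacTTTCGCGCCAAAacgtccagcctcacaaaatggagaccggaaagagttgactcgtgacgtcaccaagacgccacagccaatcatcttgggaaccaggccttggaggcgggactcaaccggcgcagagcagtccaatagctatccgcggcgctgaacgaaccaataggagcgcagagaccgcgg
Mcm6 (chr1:128359676-128359875, minus strand): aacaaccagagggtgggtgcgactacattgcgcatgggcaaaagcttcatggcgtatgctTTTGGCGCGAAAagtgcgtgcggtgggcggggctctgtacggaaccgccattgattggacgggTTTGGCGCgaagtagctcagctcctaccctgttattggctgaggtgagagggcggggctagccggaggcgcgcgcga
Mcm7 (chr5:138171854-138172053, minus strand): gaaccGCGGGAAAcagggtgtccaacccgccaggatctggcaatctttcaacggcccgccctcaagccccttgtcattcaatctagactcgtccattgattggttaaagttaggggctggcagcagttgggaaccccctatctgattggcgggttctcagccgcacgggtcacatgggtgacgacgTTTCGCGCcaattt
Rfc3 (chr5:151651179-151651378, minus strand): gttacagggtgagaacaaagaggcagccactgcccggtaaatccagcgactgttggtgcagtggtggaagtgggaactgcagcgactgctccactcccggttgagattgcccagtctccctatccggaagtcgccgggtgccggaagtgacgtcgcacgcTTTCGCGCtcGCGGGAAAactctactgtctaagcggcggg
Gins3 (chr8:95633389-95633588, plus strand): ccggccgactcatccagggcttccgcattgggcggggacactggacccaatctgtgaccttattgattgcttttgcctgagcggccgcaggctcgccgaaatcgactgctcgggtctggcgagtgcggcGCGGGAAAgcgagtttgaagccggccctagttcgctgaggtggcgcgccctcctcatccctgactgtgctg
Prim1 (chr10:128015045-128015244, plus strand): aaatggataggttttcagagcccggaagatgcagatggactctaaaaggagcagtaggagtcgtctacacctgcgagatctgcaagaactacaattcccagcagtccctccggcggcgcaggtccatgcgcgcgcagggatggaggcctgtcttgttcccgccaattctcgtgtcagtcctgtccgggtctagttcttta
In Mcm5 and in Mcm6 a pair of matches on opposite strands overlap, so that 1 longer run of capitals holds 2 matches. A second Mcm3 match begins at base 39 after the start, beyond the stretch shown. A match is a description of these letters, and no binding was measured here.

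**Figure D3:**
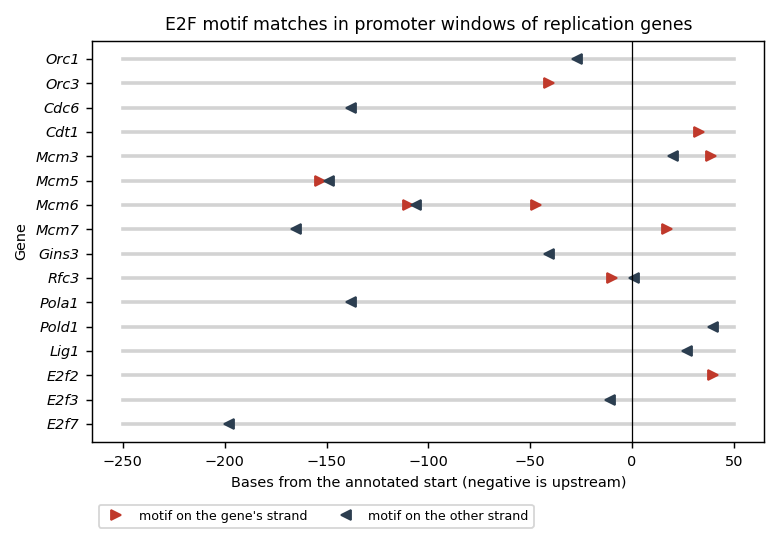
Positions of E2F motif matches in the promoter windows of the 16 replication genes that have one, in bases from the annotated start. Arrowheads mark the left end of each match and point along its strand, and for Mcm5, Mcm6, Mcm7, Mcm3 and Rfc3 more than 1 match is seen.

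Among the licensing factors, Cdc6 alone was higher in every Elektra array. CDC6 is the ATPase that, bound to ORC, loads the MCM ring. Its log2 intensity was 4.02, 4.00, 4.34 and 4.74 in Elektra replicates 1 to 4 and 3.82, 3.89, 3.70 and 3.65 in wild-type replicates 1 to 4. The groups did not overlap, the lowest Elektra value being 4.00 and the highest wild-type value 3.89. The log2 change was 0.51 (SE 0.16, 95% interval 0.15 to 0.87; unadjusted p = 0.0102, limma adjusted p = 0.884), and this p ranked 314 among all genes. Cdc6 was the only one of the 42 genes whose groups did not overlap, where 3.23% of all genes had separate groups (1.86% higher and 1.37% lower in Elektra). In the authors' deposited table Cdc6 had a p-value of 0.0309 and was the only one of the 42 below 0.05. Its change was 0.61 without Elektra replicate 2 and 0.36 without Elektra replicate 4, the array with the highest value.

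Cdt1, whose protein is the partner of CDC6 in loading, averaged 4.02 ± 0.45 over the Elektra arrays and 3.85 ± 0.26 over the wild-type arrays (SD, n = 4), and its lowest value was 3.45 in Elektra replicate 2. The 6 ORC subunits, which mark origins, had log2 changes from -0.30 to 0.05. Orc5 was 4.19, 4.40, 3.81 and 4.35 in Elektra replicates 1 to 4 and 4.49, 4.21, 4.52 and 4.72 in wild-type replicates 1 to 4, and the groups overlapped through Elektra replicates 2 and 4 and wild-type replicate 2. Its log2 change was -0.30 (SE 0.15, unadjusted p = 0.0779). Orc4 was 5.45, 5.27, 5.60 and 5.08 in Elektra replicates 1 to 4 and 5.59, 5.60, 5.34 and 5.68 in wild-type replicates 1 to 4. Orc3 was 5.83, 5.63, 5.96 and 5.77 in Elektra replicates 1 to 4 and 5.89, 6.19, 5.87 and 5.91 in wild-type replicates 1 to 4. Both lay lower in Elektra on average, by log2 changes of -0.20 and -0.17, with overlapping groups. Orc2 showed Elektra replicate 2 most sharply, with 3.95 there against 4.92 to 5.14 in the other 7 arrays, and its change of -0.28 became -0.02 without that array. The log2 changes of Orc1 and Orc6 were 0.05 and 0.00.

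The 6 subunits of the MCM2-7 ring, the helicase core that is loaded as a double ring at each origin, shared their low and high Elektra arrays. Among the Elektra arrays, replicate 2 was lowest and replicates 3 and 4 were highest for each subunit, while the order of the wild-type arrays differed. The mean log2 level of the 6 was 6.09, 5.50, 6.63 and 6.46 in Elektra replicates 1 to 4 and 5.97, 6.23, 6.37 and 6.21 in wild-type replicates 1 to 4. Elektra replicate 2 was the lowest array for 4 of the 6 and wild-type replicate 1 for Mcm4 and Mcm5, and the highest array was Elektra replicate 3 for 5 of the 6 and Elektra replicate 4 for Mcm7. Mcm7 was 5.71, 4.77, 6.14 and 6.17 in Elektra replicates 1 to 4 and 5.79, 5.80, 6.08 and 5.93 in wild-type replicates 1 to 4. Elektra replicate 2 lay more than 1 log2 unit below every wild-type array for this gene, while replicates 3 and 4 lay above them all. Log2 changes ran from -0.20 (Mcm7) to 0.17 (Mcm5), with a median of -0.06, and the unadjusted p was at least 0.478. Without Elektra replicate 2 the changes of all 6 were above 0, from 0.09 (Mcm6) to 0.40 (Mcm5), and none passed.

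Of the factors that turn the loaded ring into a moving helicase, Gins3 went its own way. GINS3 is one of 4 subunits of the GINS complex. Gins3 was 3.22, 3.11, 2.75 and 2.74 in Elektra replicates 1 to 4 and 3.34, 3.12, 3.29 and 3.34 in wild-type replicates 1 to 4. Elektra replicates 3 and 4, the arrays with the highest mean of the 42 genes, had its lowest values, and Elektra replicate 1 overlapped wild-type replicate 2. The log2 change was -0.32 (SE 0.13, unadjusted p = 0.0345, limma adjusted p = 0.884) and -0.37 without Elektra replicate 2. Gins4 was 6.18, 5.02, 6.04 and 6.36 in Elektra replicates 1 to 4 and 5.72, 6.19, 6.42 and 5.94 in wild-type replicates 1 to 4, with a change of -0.17 that turned to 0.13 without Elektra replicate 2. Gins1 (-0.17), Gins2 (0.00) and Cdc45 (-0.11), the other parts of the active helicase, and Mcm10 (0.19), which helps to activate it, had small log2 changes with unadjusted p of at least 0.396. The change of Mcm10 was 0.38 without Elektra replicate 2 (unadjusted p = 0.0476, limma adjusted p = 0.936).

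The sliding clamp and its loader had small changes. Pcna, the clamp that tethers polymerases to DNA, averaged 7.95 ± 0.23 over the Elektra arrays and 8.02 ± 0.11 over the wild-type arrays (SD, n = 4). Rfc1, the large subunit of the loader, was 5.11 ± 0.22 and 5.01 ± 0.18. The log2 changes of Pcna and the 5 RFC subunits ran from -0.07 (Rfc3) to 0.10 (Rfc1), and the 95% intervals of all 6 lay within -1 to 1. Elektra replicate 2 was the lowest array for all 6. Rfc5 had the widest range, from 3.90 in Elektra replicate 2 to 5.26 in Elektra replicate 4, and Rfc2 was 5.62 in wild-type replicate 1 and 5.98 to 5.99 in the other wild-type arrays.

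The polymerase and primase genes held the 2 largest drops in Elektra replicate 2. Pole encodes the catalytic subunit of polymerase epsilon, which copies the leading strand. It was 5.25, 4.19, 5.84 and 5.78 in Elektra replicates 1 to 4 and 5.56, 5.62, 5.64 and 5.84 in wild-type replicates 1 to 4. Elektra replicate 2 lay at 4.19, more than 1 log2 unit below every other array, and the log2 change of -0.40 (SE 0.31) was -0.04 without it. Prim1, the catalytic subunit of the primase that lays down RNA primers, was 3.96, 2.61, 4.59 and 4.45 in Elektra replicates 1 to 4 and 3.44, 3.77, 3.85 and 4.08 in wild-type replicates 1 to 4. Elektra replicate 2 was lowest and replicates 3 and 4 highest, so that the change of 0.12 (SE 0.37) was 0.55 without replicate 2 (unadjusted p = 0.0163, limma adjusted p = 0.936) and at -0.11 without replicate 3. Pola1, the catalytic subunit of polymerase alpha, was 4.85, 4.35, 5.57 and 4.67 in Elektra replicates 1 to 4 and 4.88, 5.13, 5.26 and 5.75 in wild-type replicates 1 to 4, a change of -0.40 (SE 0.26) with overlapping groups. Prim2, the large primase subunit, was 4.43, 3.92, 4.13 and 4.50 in Elektra replicates 1 to 4 and 4.96, 4.60, 4.51 and 4.07 in wild-type replicates 1 to 4, with its highest value in wild-type replicate 1, where many of the other genes were low. The log2 changes of Pola2, the second subunit of polymerase alpha, and Pold1, the catalytic subunit of polymerase delta, were -0.13 and -0.01.

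**Figure D4:**
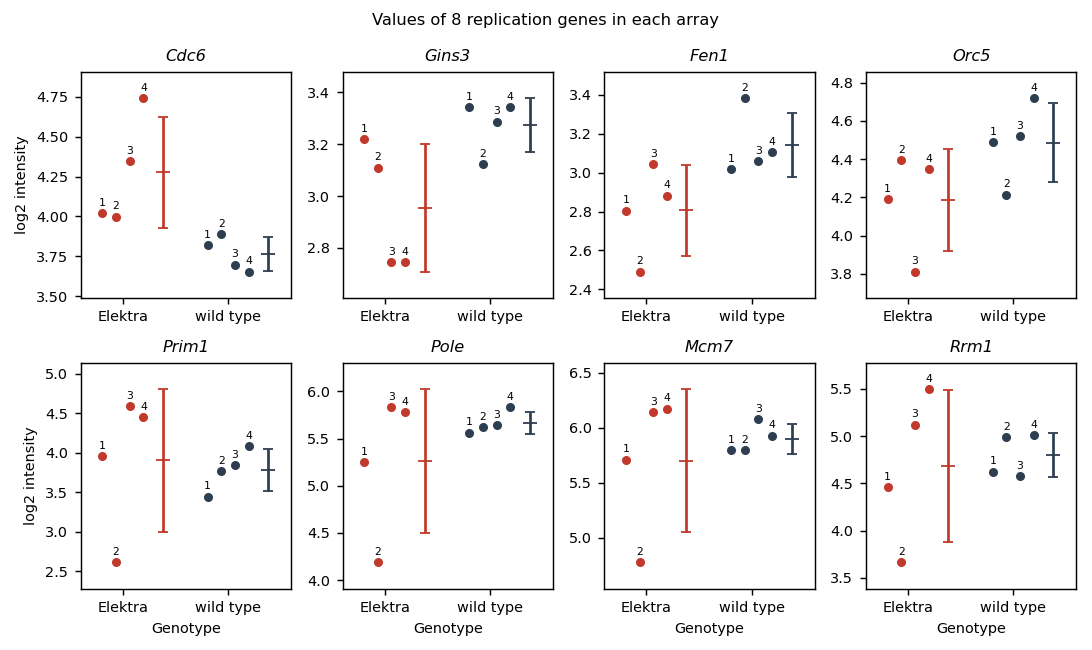
Log2 intensity of Cdc6, Gins3, Fen1, Orc5, Prim1, Pole, Mcm7 and Rrm1 in each array, with numbered points for the replicates and bars for the mean ± SD (n = 4). The groups are separate for Cdc6 alone, and Elektra replicate 2 is the lowest point for Prim1 (2.61), Pole (4.19), Mcm7 (4.77) and Rrm1 (3.66).

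On the lagging strand, FEN1 trims the flap at the end of each Okazaki fragment and LIG1 seals the nick. Fen1 was 2.80, 2.49, 3.05 and 2.88 in Elektra replicates 1 to 4 and 3.02, 3.38, 3.06 and 3.11 in wild-type replicates 1 to 4. Elektra replicate 3 overlapped wild-type replicate 1, and the other Elektra values lay below all wild-type values. The log2 change was -0.34 (SE 0.14, unadjusted p = 0.0326, limma adjusted p = 0.884), and -0.23 without Elektra replicate 2 and -0.42 without Elektra replicate 3. Lig1 averaged 5.77 ± 0.57 over the Elektra arrays and 5.82 ± 0.36 over the wild-type arrays (SD, n = 4).

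The genes of nucleotide supply shared with the MCM ring a low Elektra replicate 2 and high Elektra replicates 3 and 4, with wild-type replicate 4 also high (mean level 4.35). Rrm1 encodes the large subunit of ribonucleotide reductase, which makes deoxyribonucleotides. It was 4.46, 3.66, 5.12 and 5.50 in Elektra replicates 1 to 4 and 4.62, 4.99, 4.57 and 5.01 in wild-type replicates 1 to 4. Elektra spanned 3.66 to 5.50 and contained all wild-type values. Its log2 change was -0.11 (SE 0.34) and 0.23 without Elektra replicate 2. Rrm2, the small subunit, was 2.86 ± 0.52 and 2.85 ± 0.32, and Tyms, the thymidylate synthase, was 4.29 ± 0.44 and 4.43 ± 0.28. Elektra replicate 2 was the lowest array for all 3.

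Among the 5 E2F genes, Elektra replicate 2 was the lowest array for E2f3 and E2f8 alone. The activators E2f2 and E2f3 and the repressors E2f7 and E2f8 lay higher in Elektra on average and E2f1 lay level, and none of the 5 passed. E2f2 was 2.28, 2.74, 2.25 and 2.59 in Elektra replicates 1 to 4 and 2.16, 2.38, 2.25 and 2.21 in wild-type replicates 1 to 4. It was the only one of the 42 genes with its highest value in Elektra replicate 2. Of all genes 21.9% were highest in that array, and of those above the upper quartile of level 5.76%. E2f7 was 3.37, 3.26, 3.25 and 3.34 in Elektra replicates 1 to 4 and 2.64, 3.00, 3.39 and 3.28 in wild-type replicates 1 to 4, with Elektra values in a narrow range inside that of wild type. The log2 changes were 0.21 (SE 0.13) for E2f2 and 0.23 (SE 0.15) for E2f7. E2f3 averaged 4.51 ± 0.32 over the Elektra arrays and 4.30 ± 0.18 over the wild-type arrays (SD, n = 4), with 4.05 in Elektra replicate 2. Without that array its change was 0.37 (unadjusted p = 0.0123, limma adjusted p = 0.936), and E2f3 and Cdc6 were then the 2 members with separate groups, where 5.88% of all genes had separate groups. In that fit 6 of the 42 had an unadjusted p under 0.05, against 5.08% of all genes: Cdc6, E2f3, Prim1 and Mcm10 higher, and Gins3 and Orc5 lower in Elektra.

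**Figure D5:**
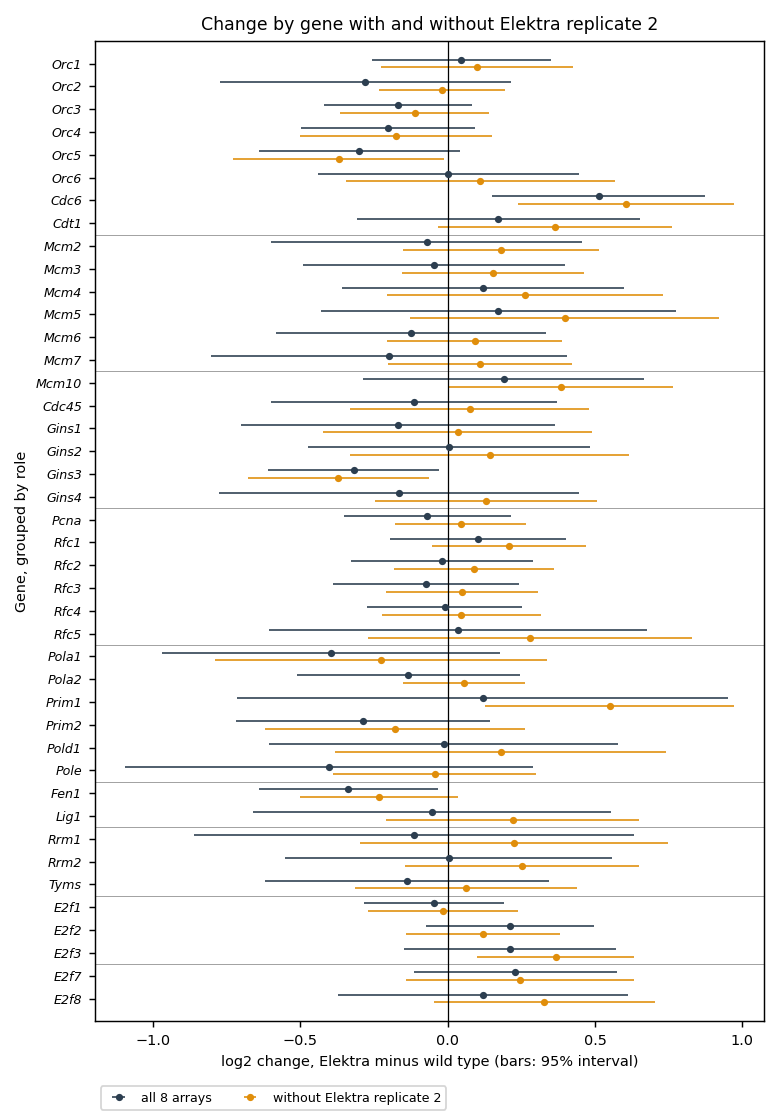
Log2 change of each of the 42 genes, Elektra minus wild type, with its 95% interval from limma, over all 8 arrays (dark) and without Elektra replicate 2 (orange). The number of genes above 0 is 16 with all arrays and 32 without that array, and Cdc6 (0.51 and 0.61) and Gins3 (-0.32 and -0.37) keep their side of 0.

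The wider replication pathway held no call either. Of 53 other replication genes, 0 passed in limma (0 with the pooled-variance test). The unadjusted limma p lay under 0.05 for 2 of the 53, against 5.5% of all genes. Both were lower in Elektra: E2f5 (-0.21, SE 0.09) and E2f6 (-0.24, SE 0.10) in log2 change, which encode further E2F factors known mainly as repressors. E2f5 was 4.02, 3.83, 4.00 and 3.92 in Elektra replicates 1 to 4 and 4.19, 4.27, 4.10 and 4.06 in wild-type replicates 1 to 4. E2f5 was the only one of the 53 with separate groups, where 3.23% of all genes had them. The log2 change of Ccne1, the cyclin that drives entry into S phase, was 0.43 (SE 0.20, unadjusted p = 0.0645), and that of Atad5, which unloads PCNA, was -0.34 (SE 0.15, unadjusted p = 0.0516). The median over the 53 was -0.05, with 19 above 0 and 34 below.

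Of the genes behind the sort, Kit lay between 8.80 and 9.23 and Ly6a (Sca-1) between 8.63 and 9.45 over all arrays. Flt3, a cytokine receptor of multipotent progenitors that is not part of the gate, was 6.94 to 7.31 in Elektra and 7.36 to 7.49 in wild type, so its groups did not overlap (log2 change -0.34, SE 0.10; unadjusted p = 0.00904, limma adjusted p = 0.884). Of all genes, 3.23% had separate groups (1.37% lower in Elektra), and 5.5% had an unadjusted limma p under 0.05. The change of Ly6a was 0.36 (SE 0.17, unadjusted p = 0.0624) with overlapping groups. Slamf1 (CD150), which the gate excludes, lay between 1.29 and 2.11, while Cd48, also excluded, lay between 3.52 and 4.23. Among markers of other marrow cells, the mean of 6 neutrophil genes ranged from 2.33 to 4.04 over the Elektra arrays and from 2.30 to 4.69 over the wild-type arrays. Its low values fell on Elektra replicates 2 and 3 and wild-type replicates 3 and 4. Means of 7 erythroid genes ranged from 3.45 (Elektra replicate 2) to 3.85 (Elektra replicate 3) and from 3.46 to 3.74 in the wild-type arrays. Ighm, an immunoglobulin gene of B cells, was 8.32 in Elektra replicate 3 and 7.53 in wild-type replicate 4 against 5.75 to 7.14 in the other arrays. The part of these cells in the replication values was not tested.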

How the data were processed

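Each of 8 RNA samples, 4 per genotype, was amplified from picogram amounts and put on 1 Affymetrix array, per the labels' protocols. The deposited log2 values were made by the authors with RMA, and the submitters' processing notes name Affymetrix Expression Console 1.4. The annotated table held 34390 probe sets, of which 31872 had 1 symbol. The brightest probe set by its mean over all arrays stood for each of 30918 genes, without a filter. The same table holds the authors' deposited p-values and fold changes, a signed score, for Elektra against wild type, and log2 means per genotype. A pooled-variance test gave the same p-values to within 2.88e-12. The series value table, used as an alternative, differed by at most 0.128 over the 42 genes.

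The genotypes were compared with limma 3.58.1 (lmFit, eBayes; R 4.3.3), two-sided. P-values were adjusted by Benjamini-Hochberg across all 30918 genes, and the threshold was 0.05. No set test was run. The fit was checked on simulated data with known changes. Those data had independent noise and no outlying array, so the check does not cover an array such as Elektra replicate 2. Where samples are not known to come from separate animals, p-values measure the spread between these samples. The number of arrays limits the precision, and no depth applies. Values in every array are given for the 10 genes of smallest p, any with separate groups, and the 5 furthest from the other arrays in Elektra replicate 2, and up to 4 of the other replication genes are named. Single values of other genes were added after they were seen. Members, lists and alternatives were chosen with earlier results of these data known. Same-numbered arrays of the 2 genotypes deviated together at correlations of 0.0106 to 0.135 over all genes, other pairs at -0.185 to 0.142. These overlapping ranges do not settle whether arrays were paired. The labels state no pairing, so the numbers were not taken as pairs, and the replicate block was an alternative. Promoter sequences and names come from RefSeq, GRCm38.p6. No build is named for the array annotation.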

Additional observations from a re-analysis of the deposited data

Results flagged for a closer look

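In groups of 4 arrays, 84 sets of member values and 20 list means were searched for 1 array lying far from the other 3 by Dixon's ratio of gap to range, and chance gives such a value in about 1 of 20 sets. Of the 84 sets of member values 3 held one, and all that were found, list means included, are given here. Orc2 was 3.95 in Elektra replicate 2, with 4.93 to 5.04 in the other Elektra arrays. Orc3 was 6.19 in wild-type replicate 2, with 5.87 to 5.91 in the other wild-type arrays. Rfc2 was 5.62 in wild-type replicate 1, with 5.98 to 5.99 in the others. The mean of the 8 origin recognition and loading genes was 4.56 in wild-type replicate 4, with 4.39 to 4.40 in the others. The mean of Fen1 and Lig1 was 4.17 in wild-type replicate 1, with 4.54 to 4.61 in the others.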

How the results depend on the processing

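No gene passed over all genes, among the 42 or among the 53 other replication genes in any of 20 alternatives: quantile normalisation, median centring, dim probe sets left out, the mean of the probe sets, the series value table, weights per array, a robust prior with a trend on intensity, the replicate block (0 in each), the pooled-variance test, an adjusted p of 0.10, and leaving out each array, a set of 3 (Elektra 2 and 3, wild type 4) or both arrays numbered 2. The count of the 42 with an unadjusted p under 0.05 lay between 1 and 6, and that of all genes between 1078 and 2115. Without 1 array these counts were 2 to 6 of the 42 and 1411 to 2115 of all 30918 genes. The count with separate groups, 1 over all arrays, was 2 with quantile normalisation (3.31% of all genes), 1 to 4 without 1 array (4 without Elektra 3, 3 without wild type 2, 2 without Elektra 1 or 2 or wild type 1 or 4, where 5.85% to 7.25% of all genes were separate), 5 without both arrays numbered 2 (9.92% of all genes) and 10 without the 3 arrays, where 20.0% of all genes were separate. The count above 0 was 16 over all arrays, 12 with median centring, 21 with quantile normalisation, 24 with array weights, 29 without the 3 arrays and 33 without both numbered 2. The median log2 change of the 42 lay between -0.17 and 0.11, and that of all genes between -0.027 and 0.018. The share of all genes above 0 is given here for the main fit alone. With dim probe sets left out, 1078 genes in place of 1702 had an unadjusted p under 0.05. The change of Cdc6 stayed above 0 (0.36 to 0.65), and those of Gins3 (-0.42 to -0.25), Fen1 (-0.42 to -0.15) and Orc5 (-0.46 to -0.14) below it, in all 19 alternatives. The change of Prim1 turned to -0.11 and -0.065 without Elektra replicates 3 and 4, within -0.11 to 0.55 without 1 array. That of Rrm1 turned to 0.056 with array weights, 0.23 without Elektra replicate 2, 0.25 without the 3 arrays and 0.29 without both numbered 2, within -0.39 to 0.23 without 1 array. Mcm7 turned to 0.11, 0.051 and 0.076 in the last 3 of these and Gins4 to 0.13, 0.16 and 0.17, within -0.36 to 0.11 and -0.32 to 0.13 without 1 array. The replicate block left all signs of the named genes as they were, and 2 of 4 Elektra arrays correlated best with their own number. Elektra replicate 2 kept the lowest mean level of the 42 genes under each scaling tried (4.15 to 4.38).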
